A study of Mus musculus with 12 samples.

Results

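The Ikaros family comprises 5 zinc finger transcription factor genes in the mouse, Ikzf1 (Ikaros), Ikzf2 (Helios), Ikzf3 (Aiolos), Ikzf4 (Eos) and Ikzf5 (Pegasus), and the regions bound by FOXP3 and by Ku70 around these genes were examined in 4 region lists from mouse T cells. The members were taken by name, 5 of the 21938 protein-coding genes on the 21 chromosomes in GENCODE M21, and a listed region was assigned to a gene when its summit, the position of its strongest enrichment, lay inside the gene or within 50 kb on either side. Chromatin immunoprecipitation sequencing had been performed on 12 samples in 4 sets, with 1 input sequenced beside the 2 biological replicates of every set. Antibodies to FOXP3 were used in regulatory T cells (Tregs) from Foxp3 Yfp-Cre mice (WT) and from Xrcc6 fl/fl Foxp3 Yfp-Cre mice (KO). Ku70, the DNA repair protein encoded by Xrcc6, was profiled in Tregs (CD4+CD25+YFP+) and in conventional T cells (Tconv, CD4+CD25-YFP-) of Foxp3 Yfp-Cre mice. All groups therefore carried the Foxp3 Yfp-Cre allele, in which the Foxp3 promoter drives the recombinase, and in the KO mice this restricts the deletion of Ku70 to cells that express or have expressed FOXP3. The background was C57BL/6J, and the methods give a range of ages for the mice of the study as a whole, without the age of those used here. Each list was called on the pooled replicates of its set, so there was no spread between replicates and no test between conditions, and a region missing from a list is not a measured loss of signal. The lists hold no read depth, and neither the loss of Ku70 in the KO cells nor the identity of the sorted cells could be checked in them. Region names in the Treg Ku70 list begin with iTreg, a usual term for Tregs induced in culture, whereas the sample labels and the methods give sorted Tregs, and the label was followed. Coordinates are those of the mm10 build.

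Ikaros family proteins bind DNA through N-terminal zinc fingers and pair with one another through C-terminal zinc fingers. They recruit corepressors such as the NuRD, Sin3 and CtBP complexes. Ikaros is required for lymphocyte development, Helios is expressed by most Tregs that arise in the thymus, Aiolos acts in B and T cells, and Eos is a partner of FOXP3 in gene repression, whereas Pegasus is the divergent member. In human cells, Ikaros and Aiolos are degraded through the cereblon ubiquitin ligase in the presence of lenalidomide, to which mouse cereblon does not respond in this way.

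Within 50 kb of the 5 genes there were 4 listed regions, and all of them were Ku70 regions. No FOXP3 region was listed there, either in WT or in KO Tregs. The Treg Ku70 list had 1 region upstream of Ikzf1 and 1 in an intron of Ikzf2. The Tconv Ku70 list had 1 region in the same intron of Ikzf2 and 1 beyond the 3′ end of Ikzf3. Ikzf4 and Ikzf5 had no region in any list. The 4 regions that carry these counts are shown first, on the plus strand of mm10 and 5′ to 3′, with the 31 bases around each summit in capitals.
Treg Ku70, Ikzf1, chr11:11676213-11676375: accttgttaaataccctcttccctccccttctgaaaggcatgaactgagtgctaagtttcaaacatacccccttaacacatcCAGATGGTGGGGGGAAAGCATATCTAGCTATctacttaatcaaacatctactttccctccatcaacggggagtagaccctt
Treg Ku70, Ikzf2, chr1:69664027-69664169: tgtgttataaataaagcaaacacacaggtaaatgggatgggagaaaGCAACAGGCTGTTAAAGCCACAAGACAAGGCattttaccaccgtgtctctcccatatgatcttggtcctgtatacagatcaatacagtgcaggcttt
Tconv Ku70, Ikzf2, chr1:69671081-69671284: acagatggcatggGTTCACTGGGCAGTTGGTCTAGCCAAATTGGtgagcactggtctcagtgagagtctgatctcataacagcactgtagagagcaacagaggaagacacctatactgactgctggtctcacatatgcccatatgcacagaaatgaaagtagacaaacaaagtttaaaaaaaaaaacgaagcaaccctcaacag
Tconv Ku70, Ikzf3, chr11:98428825-98428979: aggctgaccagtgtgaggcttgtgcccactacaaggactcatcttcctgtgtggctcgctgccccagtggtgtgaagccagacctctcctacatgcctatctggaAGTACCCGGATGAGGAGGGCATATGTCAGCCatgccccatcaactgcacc

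The 31 bases around each of these 4 summits occurred at 1 place in the genome, and no base within 50 bp of the summits was masked as a repeat. Over the whole regions, 14.7% of the Ikzf1 region and 35.8% of the Tconv Ku70 region of Ikzf2 were masked, and no base of the others was. In the whole lists, 28.4% of Treg Ku70 and 32.6% of Tconv Ku70 summits had more than 1 copy, and 40.4% and 41.1% were free of masked bases within 50 bp. Neither TGTTTAC, a forkhead core of the kind bound by FOXP3, nor TGGGAA, 1 form of the core recognised by Ikaros, was found within any of the 4 regions on either strand. Only these exact words were sought, so the absence does not extend to other forms of either core. Both words were also sought around the summits of the whole lists, and their rate in other genomic sequence was not determined. TGTTTAC lay within 50 bp of 1.03% of Treg Ku70 summits and 0.704% of Tconv Ku70 summits, and TGGGAA lay within 50 bp of 9.90% and 11.6%. The GC content within 50 bp of the summit was 41.6% for the Ikzf1 region, 44.6% for the Treg Ku70 region of Ikzf2, 50.5% for the Tconv Ku70 region of Ikzf2 and 56.4% for the Ikzf3 region. The median was 44.6% over the Treg Ku70 list and 48.5% over the Tconv Ku70 list.

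**Figure D1:**
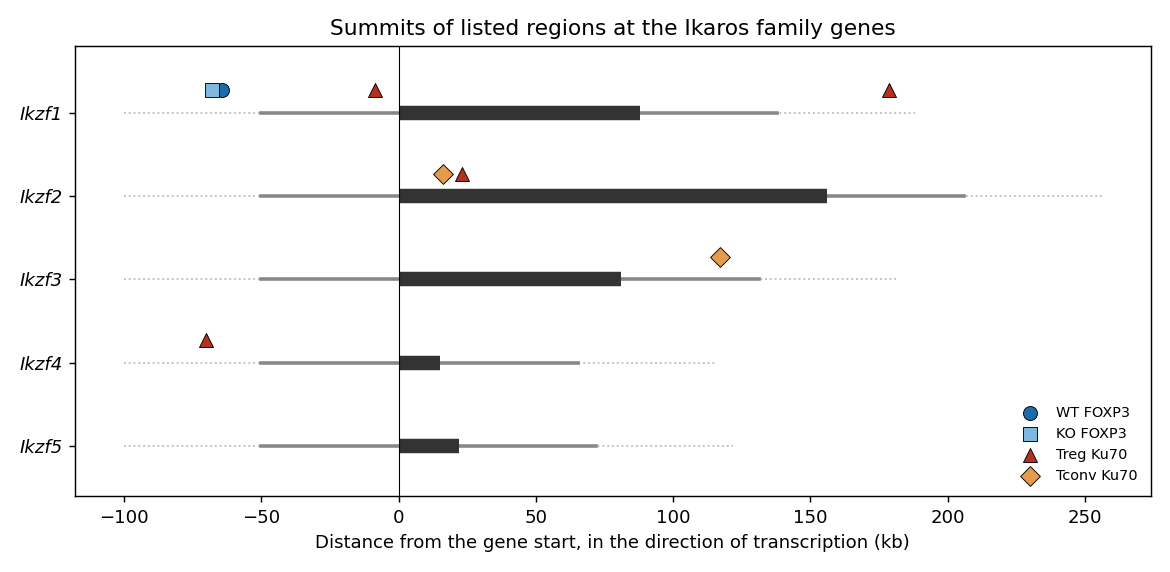
Summits of listed regions (symbols, 1 shape and colour for each list) by their distance in kb from the start of each Ikaros family gene, in the direction of transcription. Black bars are the genes, grey lines the 50 kb on either side and dotted lines the next 50 kb. The 4 symbols above black or grey are all Ku70 regions, and the FOXP3 symbols lie 64.5 and 67.9 kb upstream of Ikzf1.

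The share of genes with such a region depends on the length of the list and of the gene, and the counts of the family are to be read against it. In the WT FOXP3 list 0 of 5 members had a region, where 7.13% of all protein-coding genes did. In the KO FOXP3 list 0 of 5 members had one, against 2.59% of all genes. The Treg Ku70 list, the longest with 5295 regions, marked 2 of 5 members and 23.4% of all genes. The Tconv Ku70 list, with 1791 regions, marked 2 of 5 members and 10.7% of all genes. At these background shares, 0 FOXP3 regions among 5 genes is no result about the family, and the Ku70 counts rest on 2 genes each.

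The members are not of equal size. Ikzf2 spans 156 kb, and its window is longer than those of 93.6% of protein-coding genes. Ikzf1 spans 87.9 kb and Ikzf3 81.1 kb, and their windows exceed those of 86.9% and 85.7% of genes. Ikzf5 spans 21.9 kb and Ikzf4 15.1 kb. The 3 genes with a Ku70 region were thus the 3 longest members, and the 2 without any region the shortest. Among the 5007 protein-coding genes with windows of at least 150 kb, the class of Ikzf1, Ikzf2 and Ikzf3, 12.3% had a WT FOXP3 region, 4.37% a KO FOXP3 region, 35.7% a Treg Ku70 region and 15.6% a Tconv Ku70 region. Among shorter windows these shares were 5.59%, 2.06%, 19.8% and 9.31%. Over the 862 kb of the 5 windows, both Ku70 lists had 2.32 regions per Mb. The Treg Ku70 list had 1.97 regions per Mb over the whole genome, a density at which 1.70 regions would lie in the windows. The Tconv Ku70 list had 0.644 per Mb, or 0.555 regions in the windows. For FOXP3, the corresponding numbers at genome density were 0.557 regions in WT and 0.170 in KO.

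Ikzf2 (ENSMUSG00000025997.13, chr1:69531214-69687245, minus strand) encodes Helios and was the only member with a summit inside the gene, in both Ku70 lists and in neither FOXP3 list. The Treg Ku70 summit, at position 69664088, lay 23.2 kb downstream of the gene start, and the Tconv Ku70 summit, at position 69671109, lay 16.1 kb downstream. Both fell in intron 3 of an Ikzf2 transcript with 8 exons. This intron is 105 kb long and makes up 67.4% of the gene. The Treg Ku70 summit was 19.1 kb past the preceding exon and 86.0 kb before the next one, and the Tconv Ku70 summit was 12.1 kb past and 93.1 kb before. The regions shared no base, and their summits were 7.02 kb apart. Of the Tconv Ku70 summits 15.8% lay within 10 kb of a Treg Ku70 summit, and of the Treg Ku70 summits 5.19% lay within 10 kb of a Tconv Ku70 summit. Ikzf2 was the only member with a region in both Ku70 lists, which held for 3.46% of all protein-coding genes. That share is over genes of every length and was not determined for windows as long as that of Ikzf2.

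The fold enrichment of a summit over the local background, the height measure of the lists, was 2.22 for the Treg Ku70 region of Ikzf2. This was at the 69.7th percentile of its list, whose median was 2.04. Its p-value was 0.00944, given as a −log10 p of 2.03. The Tconv Ku70 region had a fold enrichment of 2.10, at the 42.3rd percentile of a list with a median of 2.14, and a p-value of 0.0211. The Treg Ku70 region thus stood above the middle of its list, and the Tconv Ku70 region, a different region, slightly below the middle of its own. The values of different lists come from separate libraries with separate inputs and were not compared with a test.

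Ikzf1 (ENSMUSG00000018654.17, chr11:11685003-11772926, plus strand) encodes Ikaros, the founding member. Its only region within 50 kb was the Treg Ku70 region with the summit at position 11676310, 8.69 kb upstream of the gene start. The summit lay in an intron of Gm11999, a noncoding transcript on the opposite strand, and the nearest start of a protein-coding gene was that of Ikzf1. The fold enrichment was 2.41, at the 84.6th percentile of the Treg Ku70 list. It was numerically the highest of the 4 regions of the family, which come from lists with separate inputs. The −log10 p was 2.03, the same value as at Ikzf2, and 1285 regions, or 24.3% of that list, shared it. The p-values of the list thus come in steps, and this step does not set the 2 regions apart from others. Fold enrichment was tied as well. In the Treg Ku70 list 469 regions shared both values of the Ikzf1 region and 816 those of the Ikzf2 region. In the Tconv Ku70 list 224 shared those of its Ikzf2 region. The percentiles stand at the middle of such ties. In the Tconv Ku70 list the nearest summit to Ikzf1 was 5499 kb away, and 94.3% of protein-coding genes had a summit as near or nearer.

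Ikzf3 (ENSMUSG00000018168.8, chr11:98464902-98546031, minus strand) encodes Aiolos. Its only region was in the Tconv Ku70 list, with the summit at position 98428945, 36.0 kb beyond the 3′ end of the gene and 117 kb from its start. All 155 bases of the region lay in a coding exon of a neighbour, Erbb2, a receptor tyrosine kinase gene on the plus strand. That exon (chr11:98428824-98428984) is 161 bp long, and the region began 1 base inside it and ended 5 bases before its end. It was the only region of the Tconv Ku70 list with both ends within 10 bp of the ends of 1 annotated exon, a property sought after the region had been seen. A summit in coding sequence was found for 49 of 1704 Tconv Ku70 regions on the chromosomes, or 2.88%. The nearest start of a protein-coding gene was that of Mien1, at 10.0 kb, and the region is assigned to Ikzf3 by distance alone. The fold enrichment was 2.09, at the 33.9th percentile of the list, and the p-value was 0.0104, at the 50.7th percentile of −log10 p. The nearest Treg Ku70 summit was 151 kb from Ikzf3.

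Ikzf4 (ENSMUSG00000002578.17, chr10:128630843-128645991, minus strand) encodes Eos, and Ikzf5 (ENSMUSG00000040167.16, chr7:131388652-131410521, minus strand) encodes Pegasus. Neither had a region within 50 kb in any list. The nearest Ku70 summit to Ikzf4 was 70.1 kb away in Tregs and 151 kb away in Tconv cells. For Ikzf5 these distances were 847 and 549 kb. In the Treg Ku70 list 90.6% of protein-coding genes had a summit as near as or nearer than Ikzf5 had.

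All 4 regions of the family had a −log10 q of 0, that is a q-value of 1 after the correction of the peak caller for multiple tests, and their p-values lay between 0.00944 and 0.0211. A −log10 q of 0 was the rule in these lists, at 99.7% of the regions for Treg Ku70 and 99.3% for Tconv Ku70.

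**Figure D2:**
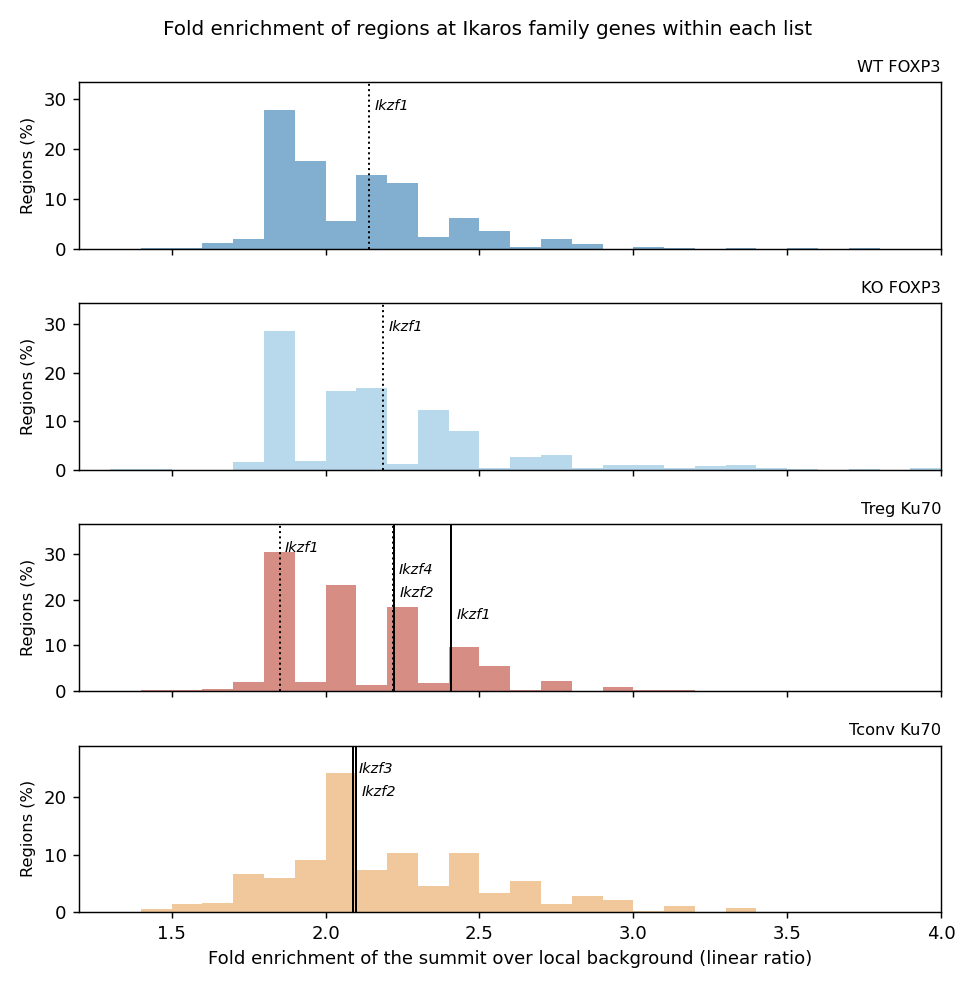
Distribution of the fold enrichment of the summit over local background (linear ratio, drawn up to 4) in each list, as the percentage of regions per bin. Solid lines mark regions within 50 kb of an Ikaros family gene and dotted lines regions 50 to 100 kb away. The Treg Ku70 regions of Ikzf1 and Ikzf2, at 2.41 and 2.22, lie above the median of 2.04. The Tconv Ku70 regions of Ikzf2 and Ikzf3, at 2.10 and 2.09, lie below the median of 2.14. Their percentiles in that list are 42.3 and 33.9.

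No summit of any list lay within 3 kb of an annotated transcript start of the 5 genes. The closest were the Treg Ku70 summit of Ikzf1 at 8.69 kb, the Tconv Ku70 summit of Ikzf2 at 13.0 kb and the Treg Ku70 summit of Ikzf2 at 20.1 kb. Few protein-coding genes had a summit within 3 kb. Even with the whole gene body included, a summit within 3 kb was found for 2.64% of protein-coding genes in WT FOXP3, 1.02% in KO FOXP3, 8.93% in Treg Ku70 and 3.53% in Tconv Ku70.

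For FOXP3, the nearest listed summit in WT Tregs was 64.5 kb from Ikzf1, 428 kb from Ikzf2, 542 kb from Ikzf5, 1171 kb from Ikzf3 and 1219 kb from Ikzf4. The median over all protein-coding genes was 637 kb, so that 3 members were nearer than the median and 2 farther. Eos, the FOXP3 partner, was the farthest of the 5. In KO Tregs, where the list was shorter, the nearest summit was 67.9 kb from Ikzf1 and 464 kb from Ikzf4, both nearer than the median of 2233 kb. The other members were 5093 kb (Ikzf2), 10713 kb (Ikzf3) and 20807 kb (Ikzf5) away. Ikzf1 was the nearest member in both FOXP3 lists, and 8.53% of protein-coding genes in WT and 3.15% in KO had a summit as near. The 31 bases around that KO summit occurred 16559 times in the genome, so its reads could have come from other copies. For Ku70, Ikzf2 and Ikzf4 held the same place in the order of both lists, and the other members changed theirs. The nearest was Ikzf2 in both. Ikzf2 was followed by Ikzf1, Ikzf4, Ikzf3 and Ikzf5 in Tregs and by Ikzf3, Ikzf4, Ikzf5 and Ikzf1 in Tconv cells. The medians over all protein-coding genes were 181 kb and 582 kb. In each Ku70 list 4 members were nearer than its median and 1 was farther, Ikzf5 in Tregs and Ikzf1 in Tconv cells.

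**Figure D3:**
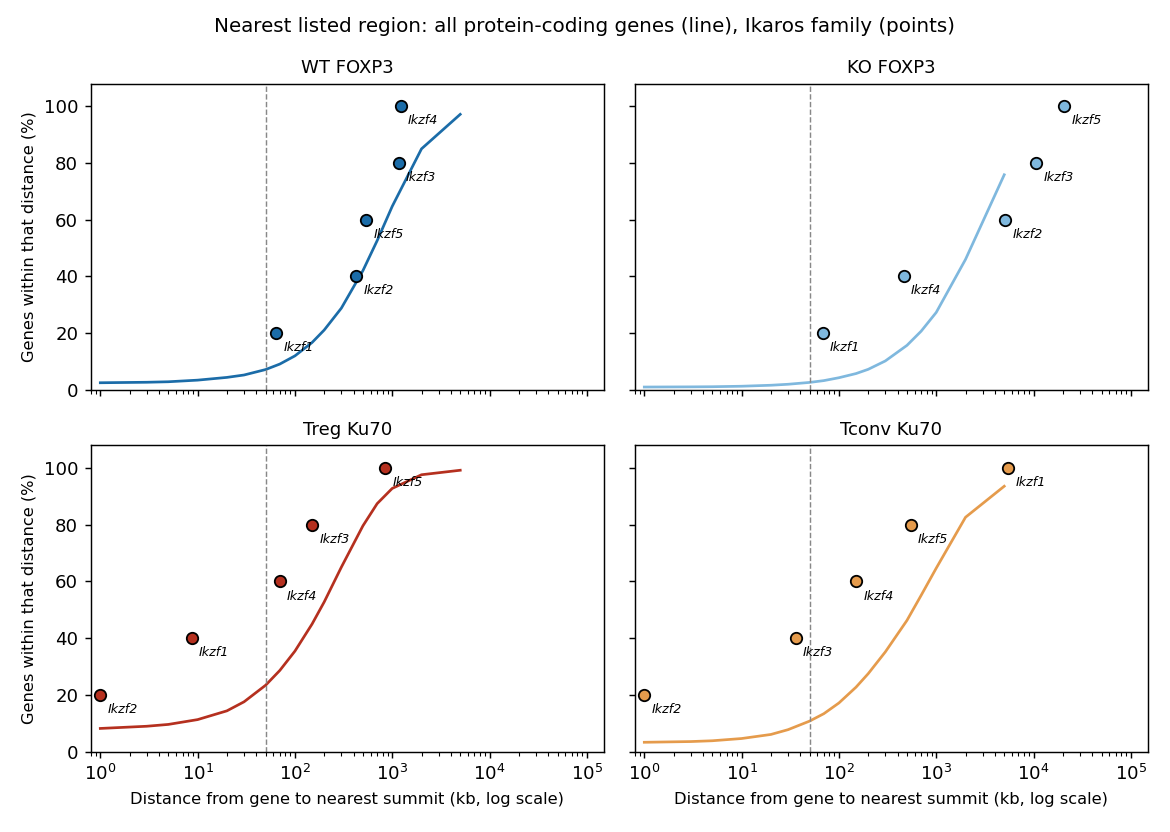
Share of protein-coding genes (line, %) with a summit within a given distance in kb (log scale), for each list, and the 5 Ikaros family genes in order of their own distance (points, 20% per gene). A summit inside a gene is drawn at 1 kb, and the dashed line is 50 kb. No point of the FOXP3 lists lies left of the dashed line, and 2 points do in each Ku70 list.

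The limit of 50 kb fell between the Tconv Ku70 summit of Ikzf3 at 36.0 kb and the WT FOXP3 summit of Ikzf1 at 64.5 kb. Between 50 and 100 kb there were 4 further regions, 3 at Ikzf1 and 1 at Ikzf4. The WT FOXP3 region of Ikzf1 and the KO FOXP3 region of Ikzf1 both lay upstream of the gene in introns of 4930512M02Rik, a protein-coding gene on the minus strand, at 64.5 and 67.9 kb. They shared no base, and their summits were 3.47 kb apart. Their sequences are printed because they differed in copy number in the genome, again with the 31 bases around the summit in capitals.
WT FOXP3, Ikzf1, chr11:11620476-11620656: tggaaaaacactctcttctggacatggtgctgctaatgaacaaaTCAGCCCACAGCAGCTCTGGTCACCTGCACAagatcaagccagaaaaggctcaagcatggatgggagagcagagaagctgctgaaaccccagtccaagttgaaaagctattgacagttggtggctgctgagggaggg
KO FOXP3, Ikzf1, chr11:11617036-11617175: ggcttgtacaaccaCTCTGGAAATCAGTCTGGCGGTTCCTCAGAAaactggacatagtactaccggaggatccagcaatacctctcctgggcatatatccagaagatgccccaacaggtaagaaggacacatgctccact

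The capitals of the WT FOXP3 region occurred once in the genome. The capitals of the KO FOXP3 region occurred 16559 times, and the whole of that region was masked as a repeat, so the reads behind it could have come from other copies. Summits with more than 1 copy made up 35.0% of the WT FOXP3 list and 37.5% of the KO FOXP3 list. TGTTTAC was absent from both regions, and it lay within 50 bp of 1.46% of WT FOXP3 and 1.91% of KO FOXP3 summits. The fold enrichment was 2.14 in WT, with a −log10 p of 1.86, and 2.19 in KO, with a −log10 p of 1.40 that 296 regions, or 54.4% of the KO list, shared. Ikzf1 was the only member with both FOXP3 lists within 100 kb, which held for 1.15% of protein-coding genes. That share, too, was not matched for gene length. Of the KO FOXP3 summits 8.60% lay within 5 kb of a WT FOXP3 summit, and of the WT FOXP3 summits 2.63% lay within 5 kb of a KO FOXP3 summit. The WT FOXP3 summit and the Treg Ku70 summit upstream of Ikzf1 were 55.8 kb apart.

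The other 2 regions between 50 and 100 kb were Treg Ku70 regions that overlapped exons of other genes. The region of Ikzf4 (chr10:128715977-128716156) lay 70.1 kb upstream, with all 180 bases in a coding exon of Pmel, a melanosome protein gene, and had a fold enrichment of 2.22. The second region of Ikzf1 (chr11:11863553-11863692) lay 90.7 kb past the end of the gene in Ddc, which encodes aromatic L-amino acid decarboxylase, and shared 42 bases with an exon of it. Its fold enrichment was 1.85, and it held 1 match to TGGGAA.

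The corepressors that act with the family were examined in the same way. So was the ligase that degrades Ikaros and Aiolos in human cells in the presence of lenalidomide. These 21 genes belong to the NuRD complex (13 genes), to Sin3 and CtBP (4 genes) and to the cereblon ligase (4 genes). A region within 50 kb was listed for 1 of the 21 in WT FOXP3, 0 in KO FOXP3, 5 in Treg Ku70 and 2 in Tconv Ku70. These counts, 4.76%, 0, 23.8% and 9.52%, were close to the shares of all genes given above. They depended on the window: with the gene bodies alone 1 gene had a Treg Ku70 region and 0 a Tconv Ku70 region, within 10 kb these counts were 2 and 0, and within 100 kb 2 genes had a WT FOXP3 region. Over all protein-coding genes, the Treg and Tconv Ku70 shares were 7.72% and 3.08% inside the gene and 11.3% and 4.60% within 10 kb. The WT FOXP3 share within 100 kb was 12.0%. In the NuRD complex, WT FOXP3 had a region inside Mta3 with a fold enrichment of 2.23, and Treg Ku70 had regions at the remodeller gene Chd4 (2.22-fold) and at Gatad2a (2.22-fold) and Gatad2b (1.85-fold). The Treg Ku70 list also marked the scaffold gene Sin3b and Rbx1, the RING subunit gene of the ligase, both at 1.85-fold. The Tconv Ku70 list marked Ctbp1 and Ddb1, the adaptor gene of the ligase. The region of Ctbp1 (chr5:33311672-33311867) lay 36.8 kb upstream with a fold enrichment of 2.63 and a −log10 p of 2.81. The fold enrichment at Ddb1 was 1.94. Cereblon itself (Crbn) had no region in any list, and no partner gene had a region in more than 1 list. Of all protein-coding genes, 3.46% had a region in both Ku70 lists and 0.583% in both FOXP3 lists. The absence of such overlap among 21 genes is not read as a result about the partners. All 8 regions at the partner genes had a −log10 q of 0, as did 99.7% of the WT FOXP3 list and the shares of the Ku70 lists given above.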

How the data were processed

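According to the methods of the study, the authors used trim_galore for trimming, Bowtie2 for alignment to mm10 and picard for duplicates. Regions were then called by MACS2 at a p-value of 0.05 and an extension of 140 bp from both replicates together and with the input of the set as control. The deposited lists give, for each summit, the fold enrichment (a ratio), the −log10 p-value, the −log10 q-value and the summit offset in bp. Depth is not in the lists, and reads were not analysed here. Groups came from the sample labels (Treg, Tconv, KO), also where region names read iTreg, Teff or CKO.

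A region with several summits was counted once, by its strongest summit. Regions were assigned to genes of GENCODE M21 by the summit, within 50 kb. Percentiles are within a list. Copies of the 31 bases around a summit were counted on both strands, and motifs were sought on both strands within 50 bp and over the region. The counting steps were tested on simulated data. Every member and every region within the window was named. Members and lists, the partner genes included, were chosen with earlier results of these data known. Python 3.11.15, numpy 2.4.6, pandas 2.3.3, numba 0.67.0 and matplotlib 3.10.9 were used. Alternatives changed the window, the minimum −log10 p, the length of the lists, copy number, the transcripts used, and the way summits were counted.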

Additional observations from a re-analysis of the deposited data

How the results depend on the processing

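No paired analysis was possible because each list pools its replicates, and for the same reason no replicate could be left out. With a window of 100 kb there was 1 WT FOXP3 region, 1 KO FOXP3 region and 4 Treg Ku70 regions at the 5 genes. The 4 Treg Ku70 regions lay at 3 members. Within 100 kb, 12.0% of protein-coding genes had a WT FOXP3 region, 4.24% a KO FOXP3 region and 35.4% a Treg Ku70 region. With the gene body alone there was 1 region in each Ku70 list, both at Ikzf2, and within 10 kb the Tconv Ku70 list had 1. A summit inside the gene was found for 7.72% of protein-coding genes in Treg Ku70 and 3.08% in Tconv Ku70. Within 10 kb the Tconv Ku70 share was 4.60%. A minimum −log10 p of 2 left 0 regions in the Tconv Ku70 list. When each list was cut to its 544 strongest regions, 0 remained in the Treg Ku70 list and 0 in the Tconv Ku70 list. By summits within 10 kb in place of a shared base, an alternative chosen after seeing the data, 1 pair of regions was shared, at Ikzf2. Of 87 alternative values 64 were within 1.5 times the main count or unchanged. That tally does not measure robustness. Narrower windows, a higher minimum −log10 p, shorter lists and single-copy summits can only remove regions. Both FOXP3 counts of the family were already 0, so under those settings they could not change. The KO FOXP3 list holds 544 regions, so the cut to that length left it whole. The median fold enrichment of members was not recomputed, since no list had 3 or more regions. Depth was not known, so the weakest region that each list could hold was not determined.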
